A study of Mus musculus with 6 samples.

Results

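The 10 genes described here encode secreted Wnt ligands of the limb bud ectoderm, its outer epithelium: Wnt3, Wnt3a, Wnt4, Wnt5a, Wnt5b, Wnt6, Wnt7b, Wnt10a, Wnt10b and Wnt11. They were taken by gene symbol from a table of 49452 genes, each symbol matching 1 row. RNA came from forelimb bud ectoderm of mouse embryos at E10.5, with 3 Sp8 null and 3 wild-type embryos. Each library held polyadenylated RNA of 1 embryo, whose left and right forelimb ectoderm had been pooled after trypsin treatment and dissection with forceps. Values of a group are given in the order of its embryos 1, 2 and 3. Null embryos had heterozygous parents that carried the Sp8-Cre-ERT2 allele and were genotyped by PCR, wild-type embryos came from separate crosses of C57BL/6 mice, and all embryos were labelled with the C57BL6J background. Genotype and cross therefore cannot be told apart. The targeted gene Sp8, a zinc finger transcription factor, was at 0.766, 0.46 and 1.14 FPKM in the null libraries and at 8.35, 11 and 13.5 FPKM in the wild-type libraries, so every library followed its label. FPKM is the number of fragments scaled to transcript length and to the mapped fragments of a library, which allows levels of different genes to be set side by side.

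Wnt proteins are secreted glycoproteins that carry a lipid, which the acyltransferase Porcn attaches and the carrier Wls takes to the cell surface. At the receiving cell they bind Frizzled receptors with Lrp5 or Lrp6 and stabilise beta-catenin, the partner of TCF/LEF factors, or they act through Ror and Ryk receptors and the planar cell polarity proteins. In the mouse limb bud, Wnt3 from the ectoderm acts through beta-catenin to induce Fgf8 in the apical ectodermal ridge, Wnt7a from the dorsal ectoderm sets dorsal pattern, and Wnt5a, which is made by the distal ectoderm and mesenchyme, is needed for outgrowth.

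The sequences of the family bear on how well short reads can tell its members apart. Between the coding sequences of the 10 genes (GENCODE M21, longest per gene), identity over aligned bases ranged from 60.1% to 77.9% in 45 pairs. The closest pairs were Wnt3 with Wnt3a (77.9%), Wnt5a with Wnt5b (77.8%) and Wnt10a with Wnt10b (71.2%). The longest exact stretch shared by transcripts of any pair among all 19 Wnt genes was 29 bases long. It lay in the coding sequences of Wnt5a (bases 994 to 1022 of 1140) and Wnt5b (bases 970 to 998 of 1116), shown here in capitals because every base is shared.
Wnt5a and Wnt5b shared stretch: ATGGACGGCTGCGAGCTCATGTGCTGTGG

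Promoter windows of RefSeq (GRCm38.p6), here the 250 bases before a start site, were found for 7 of the 10 genes, in 10 windows. Wnt5a, Wnt7b and Wnt10a had no entry. Windows are printed 5′ to 3′ on the strand of the gene for the Wnt ligand that rose (Wnt10b, chr15:98778151-98778400, minus strand), for a ligand that fell (Wnt3, chr11:103773925-103774174, plus strand) and for the most abundant ligand of the Sp8 null ectoderm (Wnt6, chr1:74771642-74771891, plus strand). Capitals mark GC boxes, the letters GGGCGG on either strand, the kind of sequence to which Sp family factors are known to bind.
Wnt10b: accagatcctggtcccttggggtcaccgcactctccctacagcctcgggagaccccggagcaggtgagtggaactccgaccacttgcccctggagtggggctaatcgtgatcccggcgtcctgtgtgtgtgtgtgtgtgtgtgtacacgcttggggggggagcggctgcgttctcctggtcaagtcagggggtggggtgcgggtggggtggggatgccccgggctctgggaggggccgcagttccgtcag
Wnt3: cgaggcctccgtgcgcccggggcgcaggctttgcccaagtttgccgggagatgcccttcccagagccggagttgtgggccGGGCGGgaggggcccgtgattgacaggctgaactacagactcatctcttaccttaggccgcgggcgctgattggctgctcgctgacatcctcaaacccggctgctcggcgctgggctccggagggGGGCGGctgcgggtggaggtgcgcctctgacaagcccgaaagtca
Wnt6: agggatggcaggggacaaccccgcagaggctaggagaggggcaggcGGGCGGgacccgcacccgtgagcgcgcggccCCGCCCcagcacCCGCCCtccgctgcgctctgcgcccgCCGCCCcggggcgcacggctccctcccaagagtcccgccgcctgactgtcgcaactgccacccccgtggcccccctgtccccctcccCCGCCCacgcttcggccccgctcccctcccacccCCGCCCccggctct

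The Wnt10b window held no GC box, that of Wnt3 held 2 and that of Wnt6 held 6. The single windows of Wnt4 and Wnt3a held 8 and 9. In all, 7 of the 10 windows held a GC box, against 32.7% of all 32851 promoter windows, and 6 of the 7 genes had one in at least 1 window. The 3 printed windows were rich in G and C, at 66.8% for Wnt10b, 68.0% for Wnt3 and 79.6% for Wnt6, against a median of 52.4% over all windows. A TCF-type sequence, CTTTGAT on either strand, was in 2 of the 10 windows (1 of Wnt5b, 1 of Wnt11) and in 3.21% of all. A homeobox-type sequence, TAATTG on either strand, was in 0 of the 10 and in 7.17% of all. Overlapping GC boxes were each counted, as in the windows of Wnt3a, Wnt4 and Wnt11. These are letters in a window and not measured binding.

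In wild-type ectoderm, Wnt5a was the most abundant of the 10 transcripts, at 64.7 ± 2.03 FPKM (SD, n = 3). Wnt6 followed at 22.5 ± 1.88 FPKM, then Wnt7b at 12.8 ± 1.09, Wnt4 at 10.47 ± 0.322, Wnt3 at 10.4 ± 0.806, Wnt10b at 4.23 ± 0.104 and Wnt5b at 1.44 ± 0.214 FPKM. Neighbours in this order did not overlap in their FPKM over the 3 libraries, other than Wnt4 with Wnt3 and, among the low genes, Wnt10a with Wnt11. Wnt10a (0.792 ± 0.296 FPKM), Wnt11 (0.441 ± 0.226) and Wnt3a (0.0699 ± 0.0758) stood at or under about 1 FPKM. In Sp8 null ectoderm the order was another one: Wnt6 was first at 25.0 ± 2.32 FPKM. Wnt5a (13.3 ± 1.4 FPKM), Wnt10b (12.7 ± 1.89) and Wnt4 (11.6 ± 0.977) came next, and Wnt5a overlapped Wnt10b, and Wnt10b overlapped Wnt4, in their FPKM. Wnt7b (9.36 ± 1.03 FPKM) and Wnt3 (6.96 ± 0.962) followed without overlap. Wnt5b (1.1 ± 0.296 FPKM) overlapped Wnt10a (0.851 ± 0.166), which overlapped Wnt11 (0.583 ± 0.195), and Wnt3a was lowest (0.164 ± 0.0275).

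**Figure D1:**
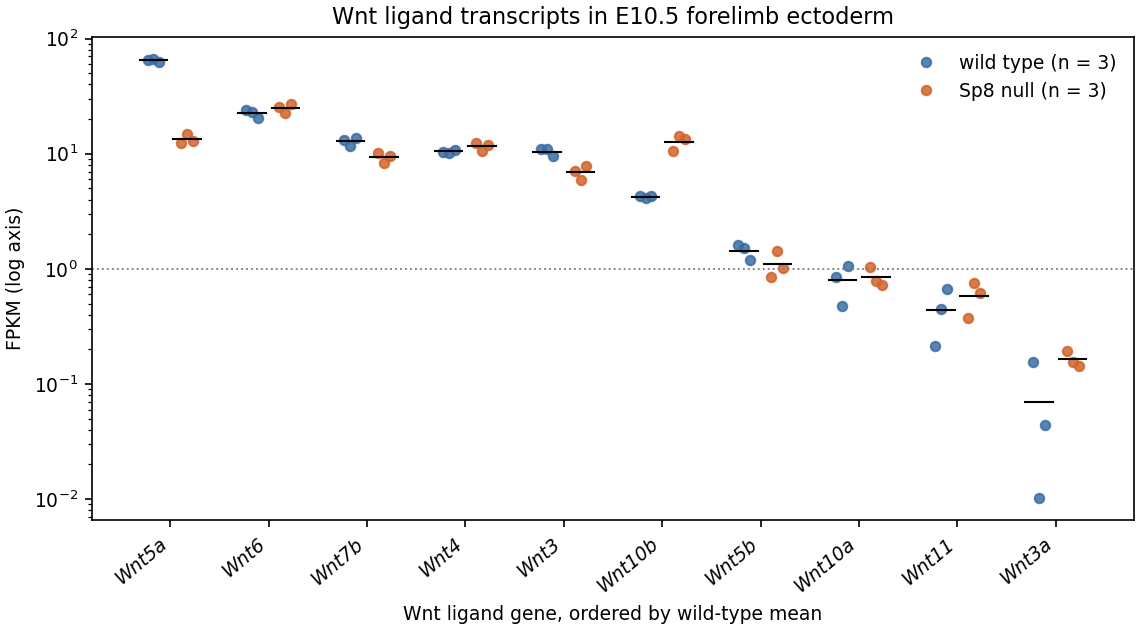
FPKM of the 10 Wnt ligand genes on a log axis in each library of wild-type and Sp8 null forelimb ectoderm, with 1 point per embryo, black lines at the group means and a dotted line at 1 FPKM. Wnt5a dropped from a wild-type mean of 64.7 to 13.3 FPKM, Wnt10b climbed from 4.23 to 12.7 FPKM, and Wnt6 and Wnt4 overlapped between the genotypes.

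To ask which ligand transcripts differed between Sp8 null and wild-type ectoderm, the genotypes were compared on the log2(FPKM + 1) scale. The fit covered all 12133 genes that reached 1 FPKM in 3 or more libraries. Dependence on Sp8 itself cannot be read from it, as genotype and cross cannot be told apart. The pseudocount of 1 makes the fold change of low genes too small. Of the 10 ligands 7 passed this filter, and Wnt3a, Wnt10a and Wnt11 did not. Of the 7, 3 were called at a Benjamini-Hochberg adjusted p under 0.05 in limma: Wnt5a and Wnt3 were lower in Sp8 null and Wnt10b was higher. Over all genes tested, 6.83% were called, 5.15% lower and 1.68% higher. The FPKM of the groups did not overlap for 4 of the 7 ligands, against 29.8% of all genes tested. The median log2 fold change was -0.22 over the 7 ligands and -0.06 over all genes tested. Each library is a separate embryo, so the spread behind these p-values is that between embryos.

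Wnt5a (ENSMUSG00000021994; GRCm38, chromosome 14, 28504750 to 28527448, plus strand), the ligand best known for signalling through Ror2 and planar polarity, was at 64.5, 66.8 and 62.8 FPKM in the wild-type libraries. In Sp8 null embryos 1, 2 and 3 it was at 12.3, 14.9 and 12.8 FPKM. The groups were far apart, every null library lying at 0.19 to 0.231 of the wild-type mean. Wnt5a fell by 2.20 on the log2(FPKM + 1) scale (SE 0.08, 95% interval -2.40 to -2.0, limma adjusted p = 1.50e-05), which was the 28th largest fall among all genes tested, and its wild-type mean was 4.85 times the null mean. Of 14 listed markers of the apical ridge 11 were tested and 9 were called, all lower, where 5.15% of all genes tested were called lower. That count holds the targeted gene Sp8, and Fgf4, Fgf9 and Rspo2 passed the filter through the wild-type libraries alone, so it is given as a description. The summed FPKM of the ridge markers was 59.9 to 75.5 in null and 294.0 to 315.0 in wild type. Bmp4 was the most abundant of them, at a mean of 37.7 FPKM in null and 125.0 FPKM in wild type. Msx2 came next, at 13.5 and 46.8 FPKM, so the sum rests largely on these genes. In bulk tissue, fewer cells of a type and less RNA per cell cannot be told apart.

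Wnt5a is also made by limb mesenchyme, so mesenchymal markers were read beside it. Their summed FPKM over 20 genes was 63.8, 211.0 and 57.3 in Sp8 null and 107.0, 51.4 and 79.2 in the wild-type libraries. In limma 0 of the 14 tested were called, and 5 were at an unadjusted p under 0.05. The share of all genes tested at that unadjusted p was not computed, so the 5 are given as a description only. None of the 20 was at 0 in all libraries. Sp8 null embryo 2 had the highest sum and, among the null libraries, also the highest Wnt5a, Wnt5b, Wnt10b and Wnt11. Without that embryo the log2 fold change of Wnt5a was -2.28 (limma adjusted p = 2.77e-05). The mesenchymal markers did not all lie the same way. Of the 14 tested, 6 had lower and 8 had higher means in null, with a median log2 difference of 0.45. The groups did not overlap for 4 of the 14, against 29.8% of all genes tested. Of these 4, Meox1 and Pdgfra were lower in null (log2 difference -0.99 and -1.15), and Twist2 and Col3a1 were higher (1.22 and 1.45). Pdgfra was at 23.8, 19.8 and 21.4 FPKM in wild type and at 6.37, 19.5 and 6.01 FPKM in null, without overlap (adjusted p = 0.12, limma), and Prrx1 was at 16.5, 3.92 and 9.93 FPKM in wild type and at 13.6, 53.3 and 12.0 FPKM in null. The part of mesenchyme in the levels of Wnt5a and the other ligands was not tested. Summed surface ectoderm markers, 16 genes that include Trp63 and Krt14, overlapped between null (945.0 to 1217 FPKM) and wild type (1140 to 1257 FPKM), and Cldn6 was the most abundant of them. Of the 16, 2 were called, in opposite directions: Epcam was lower (log2 difference -0.53; adjusted p = 0.0313, limma) and Tfap2a was higher (log2 difference 0.52; adjusted p = 0.0163, limma). For 5 of the 16 the groups did not overlap. Among all genes tested, the groups did not overlap for 29.8%, and 6.83% were called. Summed erythroid markers reached 428.0 FPKM in wild-type embryo 1 and 11.7 to 164.0 FPKM in the other libraries, and summed endothelial markers were at most 4.65 FPKM and macrophage markers at most 3.59 FPKM in any library.

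Wnt10b (ENSMUSG00000022996; chromosome 15, 98770712 to 98778150, minus strand), a ligand that signals through beta-catenin and whose human counterpart is mutated in a form of split-hand/foot malformation, was at 4.26, 4.12 and 4.32 FPKM in the wild-type libraries. In Sp8 null embryos 1, 2 and 3 it was at 10.6, 14.2 and 13.3 FPKM. Each null library was 2.5 to 3.36 times the wild-type mean, with no overlap. Wnt10b rose by 1.38 on the log2(FPKM + 1) scale (SE 0.11, 95% interval 1.11 to 1.64, limma adjusted p = 0.00067), the 43rd largest rise among all genes tested. Without Sp8 null embryo 2 it was 1.30 (limma adjusted p = 0.00186).

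Wnt3 (ENSMUSG00000000125; chromosome 11, 103774150 to 103817957, plus strand), the ectodermal ligand upstream of Fgf8, was at 10.9, 10.9 and 9.47 FPKM in the wild-type libraries and at 7.14, 5.92 and 7.83 FPKM in Sp8 null. The groups did not overlap, and the decrease was modest beside that of Wnt5a. Wnt3 fell by 0.52 on the log2(FPKM + 1) scale (SE 0.11, 95% interval -0.78 to -0.26, limma adjusted p = 0.0373). This call was held in 8 of 16 alternatives, in which the adjusted p in limma ranged from 0.0186 to 0.148. It was lost without any single library other than Sp8 null embryo 3: the limma adjusted p was 0.086 without null embryo 1, 0.0869 without null embryo 2, and 0.112, 0.148 and 0.0601 without wild-type embryos 1, 2 and 3.

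Wnt7b (ENSMUSG00000022382; chromosome 15, 85535437 to 85582473, minus strand), a close relative of the dorsal ligand Wnt7a, did not pass the threshold. It was at 13.2, 11.6 and 13.6 FPKM in the wild-type libraries and at 10.2, 8.22 and 9.64 FPKM in Sp8 null. All null values lay below all wild-type values, with a log2 fold change of -0.42 (SE 0.10, 95% interval -0.66 to -0.17, limma adjusted p = 0.0569). Wnt7b and Wnt3 thus had overlapping intervals of the difference, on either side of the threshold, and the 2 differences were not tested against each other.

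Wnt6 and Wnt4, which are widely made in embryonic epithelia, overlapped between the genotypes. Wnt6 (ENSMUSG00000033227; chromosome 1, 74771892 to 74785322, plus strand) was at 24.1, 23.0 and 20.5 FPKM in the wild-type libraries and at 25.4, 22.4 and 27.0 FPKM in Sp8 null. Its log2 fold change was 0.14 (95% interval -0.08 to 0.36, limma adjusted p = 0.427). Wnt4 (ENSMUSG00000036856; chromosome 4, 137277489 to 137299726, plus strand) was at 10.4, 10.2 and 10.8 FPKM in wild type and at 12.4, 10.498 and 11.9 FPKM in null. Its log2 fold change was 0.13 (95% interval -0.07 to 0.33, limma adjusted p = 0.395). Wnt5b (ENSMUSG00000030170; chromosome 6, 119432531 to 119544347, minus strand), the close relative of Wnt5a, was at 1.6, 1.52 and 1.19 FPKM in wild type and at 0.855, 1.43 and 1.01 FPKM in null. Its log2 fold change was -0.22 with a wide interval of -0.55 to 0.11 (limma adjusted p = 0.393).

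**Figure D2:**
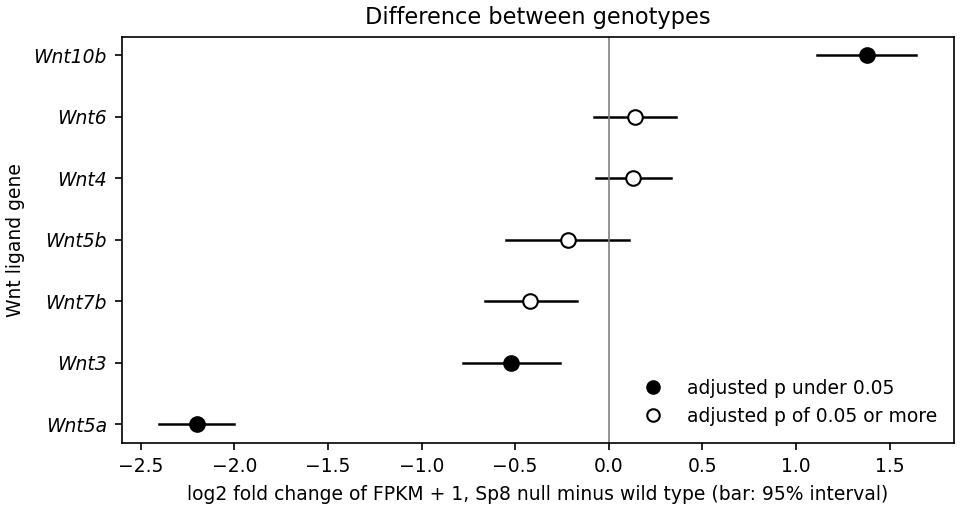
Log2 fold change of FPKM + 1, Sp8 null minus wild type, for the 7 Wnt ligands that were tested, with 95% intervals from limma and filled points for an adjusted p under 0.05. Wnt5a (-2.20) and Wnt3 (-0.52) lie below 0, Wnt10b (1.38) lies above it, and the intervals of Wnt4, Wnt5b and Wnt6 hold 0.

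The 3 ligands under the filter were not tested. Wnt10a (ENSMUSG00000026167; chromosome 1, 74791516 to 74804179, plus strand), a ligand needed for teeth and other skin appendages, was at 0.845, 0.473 and 1.06 FPKM in the wild-type libraries and at 1.04, 0.786 and 0.728 FPKM in Sp8 null. Wnt11 (ENSMUSG00000015957; chromosome 7, 98835112 to 98855195, plus strand), which acts in kidney branching, was at 0.212, 0.445 and 0.665 FPKM in wild type and at 0.374, 0.759 and 0.615 FPKM in null. Wnt3a (ENSMUSG00000009900; chromosome 11, 59248033 to 59290752, minus strand), a ligand of the tail bud, was at 0.155, 0.0102 and 0.0442 FPKM in wild type and at 0.195, 0.154 and 0.143 FPKM in null. For all 3 the groups overlapped, and no fold is drawn from levels this low.

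Because Wnt5a held so much of the ligand RNA, the make-up of the pool was described over all 19 Wnt ligand genes. Wnt5a took 39.2% ± 0.0242 of their summed FPKM in wild type (SD, n = 3) and 12.8% ± 2.14 in Sp8 null, being at 11.8%, 15.3% and 11.4% in the null libraries. Wnt10b took 2.57% ± 0.143 in wild type and 12.2% ± 2.22 in null. Wnt6 took 13.6% ± 0.948 and 23.8% ± 0.741, and Wnt4 took 6.35% ± 0.392 and 11.1% ± 0.711, although their own levels overlapped between the genotypes. Shares sum to a fixed total, so they are not independent of each other. Wnt7a, which is not among the 10, took 19.6% ± 2.3 in wild type and 15.3% ± 2.66 in null. Wnt3 stayed near its share, at 6.29% ± 0.35 in wild type and 6.63% ± 0.482 in null.

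**Figure D3:**
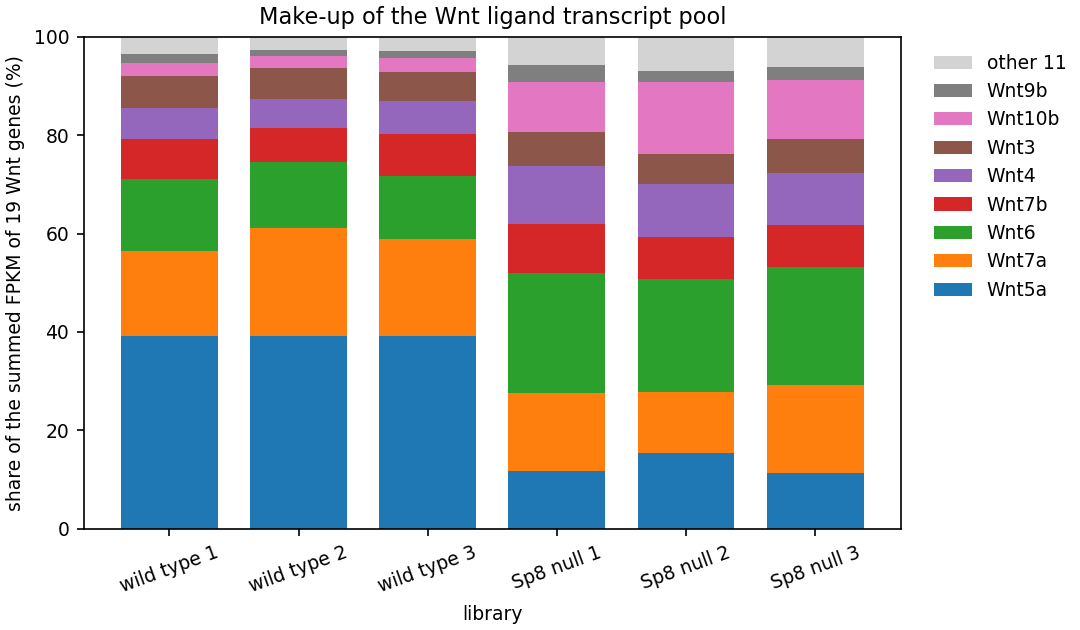
Share of the summed FPKM of 19 Wnt ligand genes taken by each gene, in percent, with 1 stacked bar per library. Wnt5a fills 39.2% of the pool on average in wild type and 12.8% in Sp8 null, while Wnt10b fills 2.57% and 12.2%.

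The summed FPKM of the 10 ligands was 130.0, 129.0 and 124.0 in the wild-type libraries and 80.5, 79.4 and 85 in Sp8 null. Without Wnt5a the other 9 summed to 63.2 ± 2.18 FPKM in wild type and 68.3 ± 3.88 FPKM in null. Ratios within a library do not depend on scaling between libraries, and were chosen after the values were seen. Wnt5a over Wnt6 was 2.67, 2.9 and 3.07 in the wild-type libraries and 0.483, 0.665 and 0.475 in Sp8 null. Wnt10b over Wnt6 was 0.176, 0.179 and 0.211 in wild type and 0.417, 0.634 and 0.491 in null. Wnt5a thus stood at 14.5 to 16.2 times Wnt10b in wild type, and at 0.967 to 1.16 times Wnt10b in null. Wnt3 over Wnt6 (0.45 to 0.472 in wild type, 0.264 to 0.29 in null) and Wnt7b over Wnt6 (0.503 to 0.667 and 0.357 to 0.402) did not overlap between genotypes either, while Wnt4 over Wnt6 (0.43 to 0.529 and 0.442 to 0.486) did.

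Several of the 10 genes lie beside another Wnt gene, with no protein-coding gene between them. Wnt6 and Wnt10a are 6.19 kb apart on chromosome 1, and both overlapped between the genotypes. Wnt10b and Wnt1 are 11.7 kb apart on chromosome 15 on opposite strands. Wnt10b rose, while Wnt1 was at most 0.0127 FPKM in any library. Wnt3 and Wnt9b are 24.3 kb apart on chromosome 11. Wnt3 fell, and Wnt9b was at 3.16, 2.02 and 2.27 FPKM in the wild-type libraries and at 3.64, 2.27 and 3.18 FPKM in Sp8 null (log2 difference 0.21; adjusted p = 0.515, limma). Wnt3a and Wnt9a are 16.2 kb apart on chromosome 11. A gene of the other strand overlaps 4.58% of the exonic bases of Wnt5a, 6.61% of those of Wnt7b and 8.8% of those of Wnt11, and as use of strand is not given, reads of such partners cannot be told apart.

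Among the 9 other Wnt ligands, 3 were tested and 1 was called, and the median log2 difference was 0.21. Wnt9a passed the filter through the Sp8 null libraries alone, at 1.15, 1.15 and 1.55 FPKM against 0.967, 0.604 and 0.857 FPKM in wild type. Its log2 difference was 0.34 (adjusted p = 0.185, limma). The median rests on Wnt9a, Wnt9b (0.21) and Wnt7a (-0.98) and is given as a description. Wnt7a was lower, at 28.5, 37.4 and 31.6 FPKM in wild type against 16.3, 12.2 and 20.0 FPKM in null (log2 difference -0.98; adjusted p = 0.0188, limma). That call was lost without Sp8 null embryo 1 and without wild-type embryos 2 and 3, each leaving 0 called. Wnt9a was not tested when any null library was left out. Wnt1, Wnt2, Wnt2b, Wnt8b and Wnt16 stayed under 1 FPKM in every library, and Wnt8a was above it in 2 null libraries.

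The genes that handle Wnt ligands were read next, in lists that together held 112 genes. In the secretion list, 13 of 14 genes were tested and Tmed2 was not analysed here, and 2 were called, both lower, and the median difference was -0.10 in log2 units. Wls, the carrier of Wnt proteins, was at 56.4, 58.6 and 61.2 FPKM in the wild-type libraries and at 40.9, 40.1 and 44.7 FPKM in Sp8 null, without overlap (log2 difference -0.48 with an SE of 0.07; adjusted p = 0.00954, limma). Tmed10, a cargo receptor of the early secretory path, fell by 0.38 in log2 units (adjusted p = 0.0217, limma). Porcn was at 1.94 ± 0.121 FPKM in wild type and 2.2 ± 0.512 FPKM in null. Both secretion calls were lost without wild-type embryo 2, and 1 was left without null embryo 1, null embryo 2 or wild-type embryo 1.

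In the receptor list, 13 of 17 genes were tested and 2 were called, in opposite directions, around a median log2 difference of -0.09. Fzd1, a Frizzled receptor, was at 46.2, 55.7 and 51.8 FPKM in the wild-type libraries and at 11.1, 11.1 and 13.1 FPKM in Sp8 null (log2 difference -2.03 with an SE of 0.10; adjusted p = 5.22e-05, limma). Ror1, a Wnt5a receptor, rose from 5.05 ± 0.947 to 8.82 ± 1.22 FPKM (log2 difference 0.70; adjusted p = 0.0341, limma). The Wnt5a receptor Ror2 was at 2.71 ± 0.595 FPKM in wild type and 2.36 ± 0.214 FPKM in null, and the coreceptor Lrp6 was at 23.1 ± 0.348 and 21.6 ± 0.906 FPKM. Of these 2 calls, 1 was left without null embryo 1, null embryo 3 or any single wild-type embryo.

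R-spondins, secreted proteins that bind Lgr receptors and raise Wnt receptor levels by removing the E3 ligases Znrf3 and Rnf43, formed a list of 9 genes, of which 7 were tested and 2 called. Rspo2 fell from 14 ± 1.11 to 0.227 ± 0.0645 FPKM (log2 difference -3.61 with an SE of 0.10; adjusted p = 5.68e-06, limma). Its receptor Lgr4 rose from 6.96 ± 0.862 to 10.9 ± 0.346 FPKM (log2 difference 0.59; adjusted p = 0.0157, limma). The other 5 tested genes had higher means in null and were not called, and the median log2 difference of the list was 0.56. Rspo2 passed the filter through the 3 wild-type libraries alone, so it was not tested when any of them was left out. Without wild-type embryo 2 none of the list was called, and without wild-type embryo 3 there was 1 call.

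Of 18 secreted or membrane inhibitors, 14 were tested and 6 were called, 4 lower and 2 higher, around a median log2 difference of -0.08. Dkk1, which blocks Lrp5 and Lrp6, fell from 2.29 ± 0.384 to 0.682 ± 0.168 FPKM (log2 difference -0.97; adjusted p = 0.00829, limma). Its coreceptors went separate ways: Kremen1 fell by 0.76 (adjusted p = 0.00645, limma) and Kremen2 rose by 0.65 (adjusted p = 0.00269, limma) on the log2 scale. Apcdd1, a membrane-bound inhibitor, fell from 20.2 ± 2.47 to 12.3 ± 0.0963 FPKM (log2 difference -0.67; adjusted p = 0.00846, limma). Dkk1 too passed the filter through the wild-type libraries alone and was not tested when any of them was left out. The count was 3 without wild-type embryo 2 or 3.

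In the core of the beta-catenin pathway, 1 of 17 genes was called, Dvl3, an adaptor below Frizzled, which rose from 15.9 ± 0.214 to 20.2 ± 0.461 FPKM (log2 difference 0.33; adjusted p = 0.0298, limma). That call was lost when any 1 of the 6 libraries was left out, and the median log2 difference of the list was -0.02. Beta-catenin itself (Ctnnb1) was at 452.0 ± 22.1 FPKM in wild type and 470.0 ± 56.8 FPKM in null. Of 14 TCF/LEF factors and targets, 10 were tested and 3 were called, all lower, while the median log2 difference of the list was 0.16. Tcf7, a TCF factor, fell from 30.9 ± 3.4 to 9.05 ± 1.08 FPKM (log2 difference -1.67; adjusted p = 0.000299, limma). Myc fell by 0.85 (adjusted p = 0.0314, limma) and the cyclin Ccnd1 by 0.70 (adjusted p = 0.0173, limma) on the log2 scale. The feedback target Axin2 was at 27.5 ± 3.36 FPKM in wild type and 31.6 ± 3.73 FPKM in null, and the factor Lef1 was at 110.0 ± 13.8 and 122.0 ± 5.45 FPKM, both overlapping. The 3 calls became 1 when any single wild-type embryo was left out.

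Of 14 planar polarity genes, 12 were tested and 4 were called, all lower, and the median difference was -0.14 in log2 units. Prickle1 fell from 4.9 ± 0.636 to 2.02 ± 0.341 FPKM (log2 difference -0.97; adjusted p = 0.00634, limma). Ankrd6 fell by 0.82 (adjusted p = 0.00751, limma), the cadherin Celsr2 by 0.79 (adjusted p = 0.00624, limma) and Vangl1 by 0.52 (adjusted p = 0.039, limma) on the log2 scale. Vangl2, the more abundant Vangl gene, was at 26.7 ± 1.36 FPKM in wild type and 27.8 ± 1.2 FPKM in null. The share of each list that was called can be set beside the 6.83% of all genes tested, and no list was tested as a set.

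**Figure D4:**
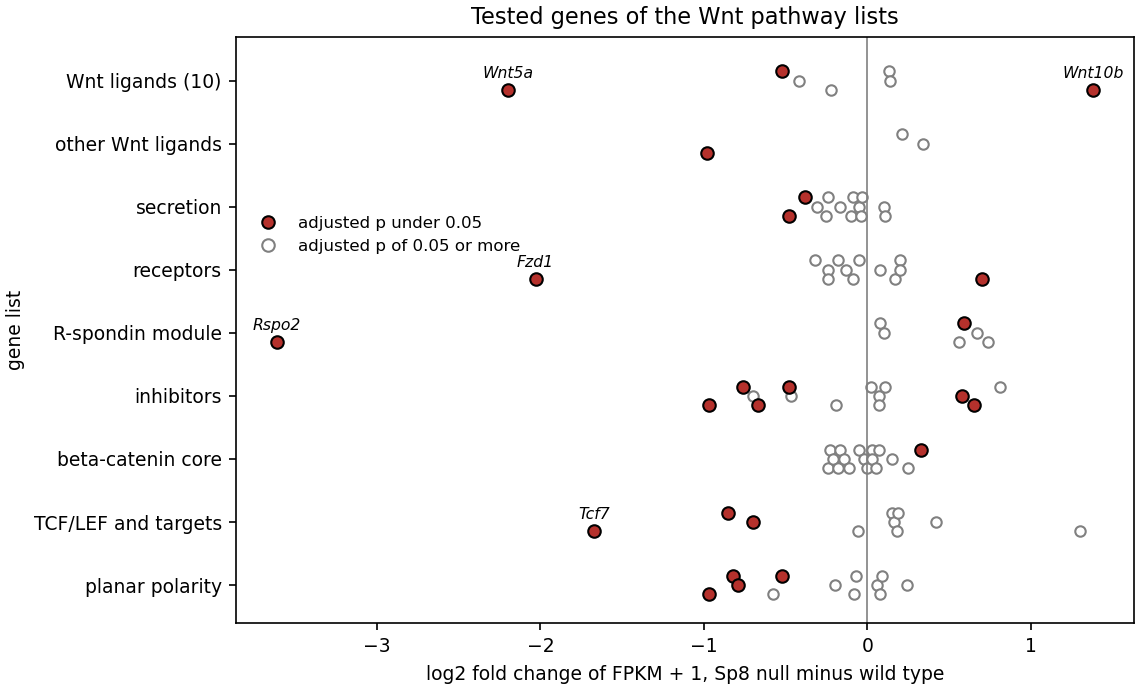
Log2 fold change of FPKM + 1, Sp8 null minus wild type, of every tested gene of the 10 Wnt ligands and of 8 other Wnt pathway lists, with 1 point per gene and filled points for a limma adjusted p under 0.05. Wnt5a (-2.20), Fzd1 (-2.03), Rspo2 (-3.61) and Tcf7 (-1.67) stand far to the left, Wnt10b (1.38) to the right, and the beta-catenin core lies near 0.

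The 3 genes whose log2(FPKM + 1) followed that of Wnt5a most closely over the 6 libraries were sought among all genes tested. They were Slc12a2 (Pearson's r 0.9994), a sodium, potassium and chloride carrier, Itga4 (0.9979), an integrin subunit, and 5031439G07Rik (0.9976). Slc12a2 was at 7.16 FPKM in wild type and 4.1 FPKM in null on average, and Itga4 at 9.87 and 0.516 FPKM. The 6 libraries form 2 groups, and r is given as a description only.

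The authors' deposited table holds its own comparison, whose test is not described there. It listed a fold change of -4.6 for Wnt5a, 2.96 for Wnt10b and -1.44 for Wnt3, each with a p-value listed as 0 in the authors' deposited table. For Wnt7b the authors' deposited table listed -1.32 with p = 1.90e-05, and for Wnt6 and Wnt4 it listed 1.13 for both, with p = 0.0253 and p = 0.0325. Fold changes in the authors' deposited table were -1.21 for Wnt5b, 1.14 for Wnt10a, 1.16 for Wnt11 and 1.35 for Wnt3a, with p-values from 0.0604 to 0.356. These fold changes were not ratios of the group means listed beside them. For Wnt3a the listed means were 7.1 in wild type and 17.45 in null. For Sp8 they were 1960.23 and 149.39, with a listed fold change of -4.16. Directions in the authors' deposited table were the same as those of mean FPKM for all 10 ligands.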

How the data were processed

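The authors deposited FPKM for 49452 genes in 6 libraries, with gene models of Ensembl build 87 per the file headers. TopHat2, SAMtools, Cufflinks, DESeq2 and FastQC, and the GRCm38 build, are named in the submitters' processing notes with no role or order. Use of strand is not given in the sources used here. The authors' deposited table also gives a mean signal per group, headed control and sample and taken here for wild type and Sp8 null, a signed fold change (score) and a p-value per gene, which were only described.

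FPKM was analysed as log2(FPKM + 1) for the 12133 genes at 1 FPKM or more in at least 3 libraries. Genotype was the sole term of a linear model in limma (version 3.58.1, R 4.3.3) that let the prior variance follow mean expression, and two-sided p-values were Benjamini-Hochberg adjusted over all genes tested, with a threshold of 0.05. Intervals are at 95%. Coordinates, coding sequences (aligned with Biopython 1.88) and exons are from GENCODE M21, which held 49195 of the identifiers, and promoters from RefSeq (GRCm38.p6). Named genes were the 10 ligands, Sp8, up to 4 called genes of each pathway list, or the gene with the smallest p where none was called, and the 3 genes nearest in pattern to Wnt5a, which was both the most abundant ligand and the one with the smallest p. Other genes named with their levels were chosen after their values were seen. The ligands and lists were chosen with earlier results of these data known.

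Depth relative to wild-type embryo 1, read from the steps between low FPKM values, ranged from 0.84 to 1.03, and 11835 to 12245 genes per library reached 1 FPKM. Depth in reads is unknown, so no counting interval is given. At most 1 gene at 1 FPKM or more had an equal value in any pair of libraries, and all 6 were kept as separate replicates. Alternatives were other pseudocounts, filters, scalings, covariates, no trend, gene subsets and leaving out each library. Protein sequences were not used here.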

Additional observations from a re-analysis of the deposited data

How the results depend on the processing

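Over 16 alternatives, Wnt5a (-2.28 to -2.11) and Wnt10b (1.30 to 1.55) kept their direction and their call, and Wnt4 and Wnt6 kept their direction and stayed uncalled, as did Wnt5b in the 15 that tested it. The cause of the changes below was not tested. Wnt3 stayed at -0.52 but was not called with no filter (limma adjusted p = 0.107), with the first digit in sample names as covariate (0.0621) or with the embryo number as a replicate block (0.113), and was -0.60 to -0.42 with 1 library left out. Wnt7b at -0.42 was called with a mean of at least 5 FPKM (limma adjusted p = 0.0459) and among protein-coding genes (0.0351).

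The 829 genes called over all genes were 342 with no filter, 545 with that digit as covariate, 328 with the replicate block, and 213 to 665 with 1 library left out. By library these were 397, 447 and 665 without Sp8 null embryos 1, 2 and 3, and 363, 213 and 392 without wild-type embryos 1, 2 and 3. The embryo number is not a known pairing, as wild-type embryos came from separate crosses. Libraries of the same number, taken as differences from the mean of their group, correlated at -0.16, -0.14 and -0.07. These values cannot decide on pairing, because libraries of different numbers were not compared. Of the calls 24.6% were higher in Sp8 null, against 42.0% with upper-quartile scaling. With 1 library left out this share ranged from 14.6% (without Sp8 null embryo 3) to 41.3% (without wild-type embryo 1). With no filter the called genes were 0 of other Wnt ligands, 1 of receptors, 1 of the R-spondin module, 3 of inhibitors and 1 of TCF/LEF and targets. With the replicate block they were 0 of other ligands, 0 of secretion, 1 of receptors, 1 of the R-spondin module and 0 of the beta-catenin core. With the first digit as covariate they were 1 of receptors and 0 of the beta-catenin core, which had 2 with upper-quartile scaling, and planar polarity had 2 with a mean of at least 5 FPKM. With 1 library left out the called genes were 0 to 1 of other ligands, 0 to 2 of secretion, 1 to 2 of receptors, 0 to 2 of the R-spondin module, 3 to 7 of inhibitors, 0 to 0 of the beta-catenin core and 1 to 3 of TCF/LEF and targets.

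With the 10 ligands as the whole, shares in wild type were 50.6% for Wnt5a, 17.6% for Wnt6, 10.04% for Wnt7b, 8.2% for Wnt4, 8.12% for Wnt3, 3.31% for Wnt10b and 1.12% for Wnt5b. In Sp8 null they were 30.5% for Wnt6, 16.4% for Wnt5a, 15.6% for Wnt10b, 14.2% for Wnt4, 11.5% for Wnt7b, 8.51% for Wnt3, 1.05% for Wnt10a and 0.202% for Wnt3a. Wnt3a, Wnt10a and Wnt11 lie at levels where depth limits any comparison.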
